A study of Mus musculus with 4 samples.

Results

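The integrated stress response is described here through 10 genes, *Atf4*, *Atf5*, *Ddit3*, *Nupr1*, *Trib3*, *Sesn2*, *Ddit4*, *Asns*, *Psat1* and *Chac1*, among the 31053 genes counted in each of 4 single-cell libraries from mouse prostate and its embryonic precursor. The genes were taken by name as known members or targets of the pathway, with results on these data already in view, *Nupr1* among them, and all 10 were present in every library. In this response, kinases that sense missing amino acids, misfolded protein in the endoplasmic reticulum (ER), virus or haem shortage phosphorylate the translation factor eIF2. General protein synthesis then falls, while the mRNA of the transcription factor ATF4 is translated more, and ATF4 with its partner factors switches on genes for amino acid synthesis and uptake, tRNA charging and, under lasting stress, cell death. Because ATF4 is largely controlled through translation, the level of its mRNA is not a measure of its protein, and secretory tissues such as the prostate, which make much protein in the ER, are among those in which the response is studied.

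The study asked how epithelial cells marked by *Runx1* are placed in the prostate, and sorted EPCAM+ cells of P2-Runx1:RFP reporter mice (strain ICR, CD-1, older than 8 weeks), in which red fluorescent protein (RFP) reports the P2 promoter of *Runx1*. The lobes were dissected as the anterior lobe (AP), the dorsolateral lobe (DLP) and the ventral lobe (VP), and their RFP+ and RFP- cells were tagged with lipid-bound sample barcodes and pooled into 1 library per run. Runs 1, 2 and 3 held intact mice, cells of several mice being pooled, and are the replicates, so p-values measure the spread between these pools. Run 2 also held castrated mice (more than 4 weeks after surgery) by lobe, whereas the castrated cells of run 1, 17 RFP+ and 1 RFP-, were pooled over lobes and are not compared. The explant library held sorted EPCAM+ cells of urogenital sinuses, the embryonic tissue that forms the prostate, taken from ICR embryos (E15.5) and cultured with 10 µM dihydrotestosterone for 0, 1, 3 or 6 days, 1 pool per day. All adult cells, castrated ones included, carried the reporter, and RFP marks promoter activity rather than the protein.

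In the adult runs 824, 2194 and 1673 cells could be assigned to 1 sorted population, with median totals of 9750 to 13055 unique molecular identifiers (UMIs, each a captured mRNA molecule) per cell, and the explant library gave 5198 cells with a median of 14784.5. Clusters were named from keratins and other markers, and cells of basal-like and luminal-like clusters were summed per run and sorted population, which gave 16 luminal-like and 15 basal-like sums of at least 10 cells from intact mice. Intact DLP RFP+ cells came from run 3 only, since their sample barcode failed to label in runs 1 and 2. The VP RFP- luminal-like sums stood apart in size and quality, with 10, 67 and 46 cells and a median mitochondrial share of 0.324% in run 3 against 2.02% to 4.17% in the other luminal-like sums. The 4 libraries shared 0 to 2 cell barcodes in any pair. Levels are given as CPM, a gene's UMIs scaled to the same total in every sum, and, where comparisons were tested, as normalised CPM, in which that total was adjusted by TMM scaling across the intact sums.

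ATF4 acts at composite C/EBP-ATF elements, and the promoter sequences of the 10 genes (RefSeq, GRCm38.p6, 250 bases before to 50 after each start) were searched on both strands for the core of that element, TGATGNAA. It was present in 4 of the 10 genes, *Nupr1*, *Trib3*, *Asns* and *Chac1*, which as a set of 10 have 12 promoters. Of the promoters of all genes, 1304 of 32851 held it (3.97%). The first count is of genes and the second of promoters. The matches are printed with 10 bases on each side, on the strand of the gene and with the element in capitals, because, among the genes that hold it, *Nupr1* was highest in VP and the other three were highest in AP.
Nupr1, chr7:126625563-126625590, minus strand, 110 bases before the start, element on the opposite strand: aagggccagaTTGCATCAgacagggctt
Trib3, chr2:152344029-152344056, minus strand, 15 bases after the start, element on the opposite strand: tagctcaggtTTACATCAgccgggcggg
Asns, chr6:7693215-7693242, minus strand, 23 bases before the start, element on the strand of the gene: cccagccacaTGATGAAActtcccgcac
Chac1, chr2:119351039-119351066, plus strand, 193 bases before the start, element on the opposite strand: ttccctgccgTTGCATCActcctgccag
The same 8 letters stand in the *Nupr1* and *Chac1* windows. In the windows of *Atf4* (gene at chr15:80255184-80257545), *Atf5* (chr7:44812256-44816658), *Ddit3* (chr10:127290793-127296291), *Sesn2* (chr4:132492804-132510456), *Ddit4* (chr10:59949675-59951770) and *Psat1* (chr19:15905123-15925059) no match was found, which says nothing about sites elsewhere in those genes.

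Across the intact prostate, *Nupr1*, which codes for a small chromatin-associated protein induced by stress, had the widest range of the 10 genes. In luminal-like sums it ran from 12.2 to 5291 normalised CPM (median 704, n = 16), and in basal-like sums from 6.57 to 33.2 (median 13.2, n = 15). Its luminal levels differed between lobes, though not in a full order by lobe. The VP RFP+ sums held 4378, 3059.8 and 4304 normalised CPM in runs 1, 2 and 3, and the VP RFP- sums 5291, 1232 and 2094. DLP RFP+ cells of run 3 held 1446, above the VP RFP- sum of run 2. The AP RFP+ sums held 549, 690.2 and 330.4, overlapping with AP RFP- (371, 525 and 12.2) and with DLP RFP- (422, 719 and 21.5). Every VP sum was thus above every AP sum and every DLP RFP- sum, while the AP and DLP RFP- populations could not be ordered, since run 3 lay far below the other runs in both.

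**Figure D1:**
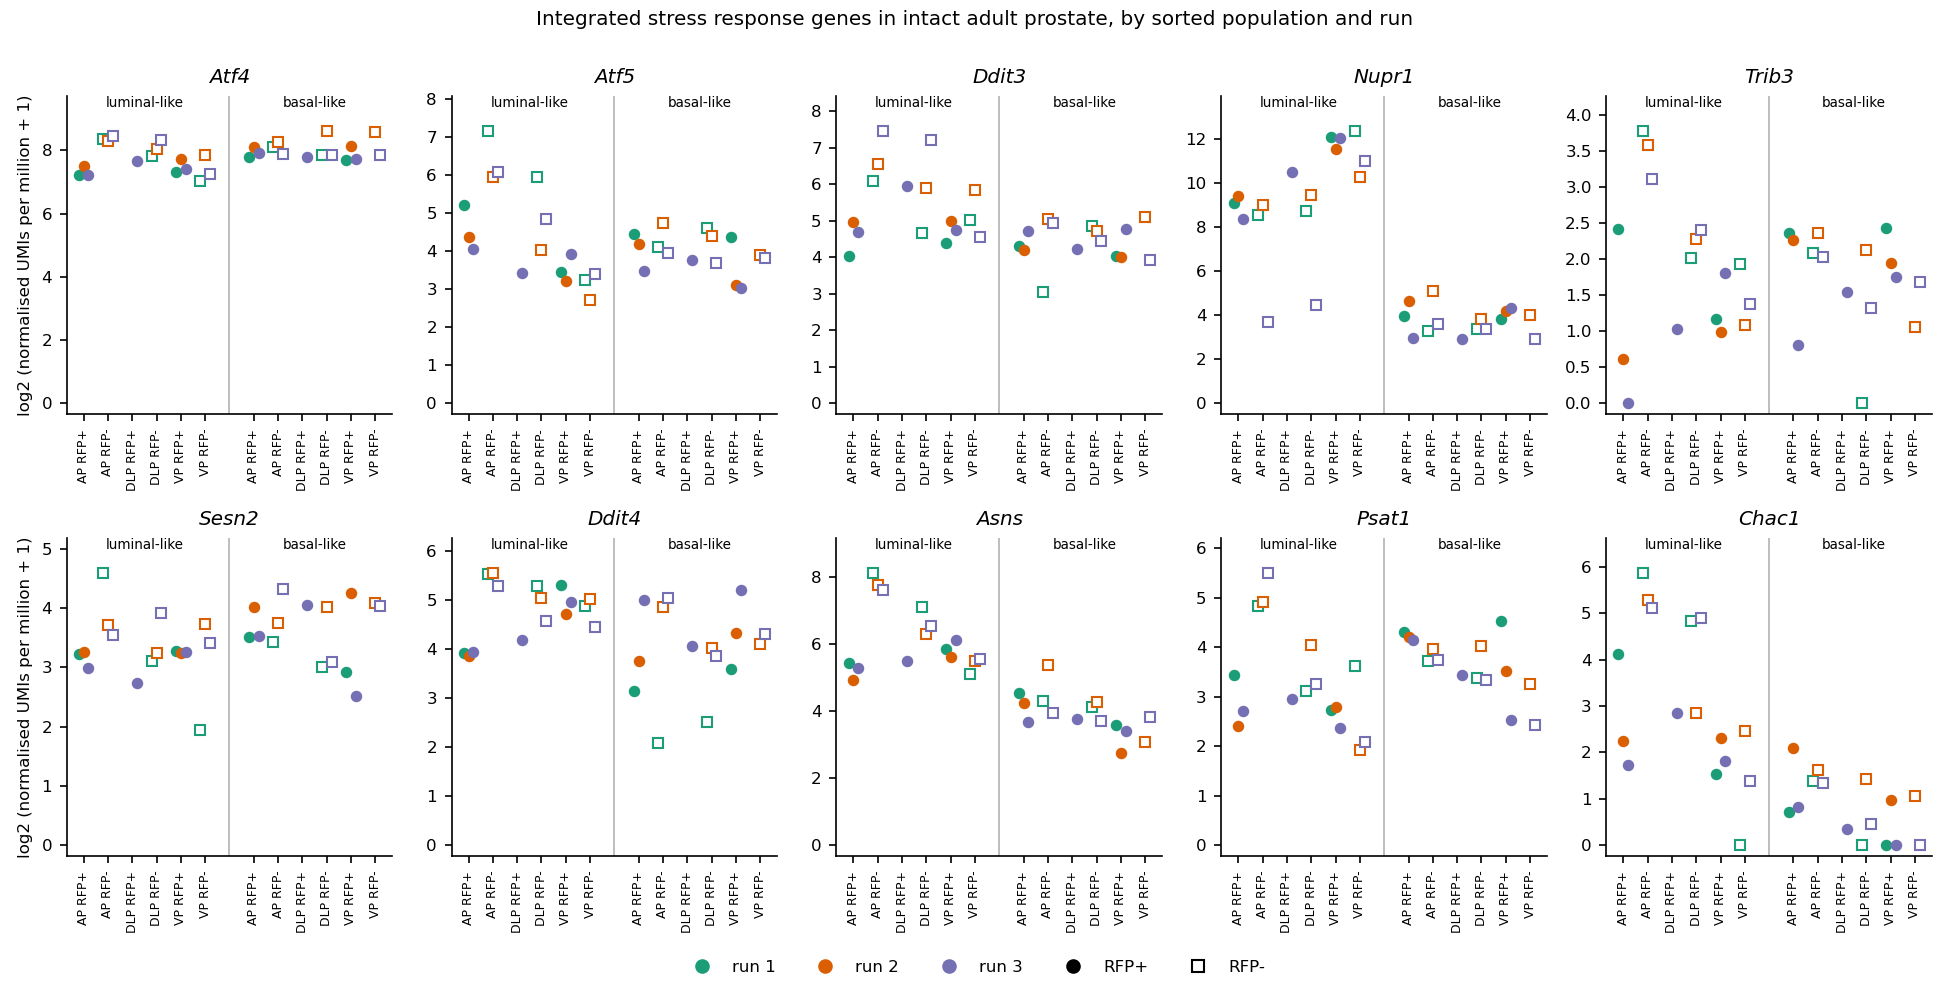
Level of each of the 10 genes in intact adult prostate on a log2 (normalised CPM + 1) scale, by lobe and RFP within luminal-like (left) and basal-like (right) cells; each point is the sum of 1 run, coloured by run, filled for RFP+ and open for RFP-. *Nupr1* is high in VP luminal-like cells and low in all basal-like sums, whereas *Asns* and *Chac1* are highest in the 3 AP RFP- luminal-like sums.

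The other 9 genes were arranged differently from *Nupr1*. *Atf4*, the central transcription factor, varied least, from 130.0 to 348 normalised CPM in luminal-like and from 205 to 389 in basal-like sums. *Asns*, which codes for asparagine synthetase, ran from 29.5 to 279 in luminal-like sums against 5.70 to 40.5 in basal-like ones. *Chac1*, whose enzyme breaks down glutathione, reached 57.3 in luminal-like sums and no more than 3.26 in basal-like ones, where 4 of 15 sums held no UMI of it and all 15 together held 23. The highest of the 16 luminal-like sums was an AP RFP- sum for each of *Atf4*, *Atf5*, *Ddit3*, *Trib3*, *Sesn2*, *Ddit4*, *Asns*, *Psat1* and *Chac1*, in run 1, 2 or 3. *Psat1*, an enzyme of serine synthesis, overlapped between the compartments (2.80 to 44.1 in luminal-like and 4.39 to 22.0 in basal-like sums), as did *Sesn2*, whose product restrains the growth kinase mTORC1 (2.83 to 23.1 and 4.76 to 19.1).

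The RFP+ luminal-like cells of VP and DLP entered no test among luminal-like cells. In VP RFP+ cells *Asns* was at 56.8, 48.2 and 68.4 normalised CPM in runs 1, 2 and 3, overlapping with neither AP RFP+ nor AP RFP- cells. *Chac1* was at 1.87, 3.95 and 2.501 there, and *Trib3* at 1.25, 0.988 and 2.501. *Ddit4* was at 38.1, 25.1 and 30.01, above each AP RFP+ sum, while *Atf4*, at 157, 212 and 171, overlapped with AP RFP+ cells. The DLP RFP+ cells of run 3 held *Asns* at 43.9, *Ddit3* at 60.5 and *Chac1* at 6.20.

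Whether the pathway differs with *Runx1* reporter activity was asked first in AP luminal-like cells (214, 102 and 145 RFP+ and 77, 148 and 28 RFP- cells in runs 1, 2 and 3). Of the 10 genes, 8 were lower in RFP+ cells at an adjusted p under 0.05 (edgeR quasi-likelihood test, Benjamini-Hochberg over all genes), none was higher, and *Nupr1* and *Sesn2* did not pass. Over all 8985 genes tested, 25.0% passed, 11.7% lower and 13.3% higher in RFP+ cells. The median log2 difference of the 10 genes was -2.00, against 0.00 over all genes.

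Among the transcription factors, *Atf4* stood at 149, 182 and 149.8 normalised CPM in the RFP+ sums of runs 1, 2 and 3 and at 329, 311 and 348 in the RFP- sums. It was lower in RFP+ cells by 1.02 on the log2 scale, a difference of -1.02 ± 0.18 (SE, edgeR adjusted p = 0.00389). *Atf5*, a related factor that is also controlled by translation, was counted at 36.0, 19.9 and 15.7 against 142, 61.1 and 66.9. Its difference was -1.86 ± 0.39 (adjusted p = 0.00816). For both factors the lowest RFP- sum lay above the highest RFP+ sum. *Ddit3*, which codes for CHOP, a factor tied to cell death under lasting stress, was at 15.4, 30.1 and 24.9 in RFP+ and at 67.3, 93.4 and 173 in RFP- cells, a difference of -2.21 ± 0.38 (adjusted p = 0.0035). The RFP- sums were again all higher, though they spread more than those of *Atf4*. *Nupr1* overlapped between the groups, at +0.80 ± 0.83 (adjusted p = 0.541).

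Among the regulators that feed back on the response or on growth, *Trib3*, a pseudokinase that binds ATF4 and CHOP, was rare in RFP+ cells, at 4.35, 0.537 and 0 normalised CPM against 12.6, 11.0 and 7.61. The groups did not overlap, and the difference was -2.24 ± 0.66 (adjusted p = 0.0362). This call was lost without run 2 (adjusted p = 0.208) and without run 3 (0.0872). *Ddit4*, which codes for REDD1, an inhibitor of mTORC1, stood at 14.0, 13.4 and 14.3 in RFP+ cells and at 45.2, 45.6 and 38.0 in RFP- cells. The runs were close within each group, and the difference was -1.62 ± 0.17 (adjusted p = 0.000518). *Sesn2* was at 8.31, 8.59 and 6.91 against 23.1, 12.2 and 10.6, groups that did not overlap, but its difference of -0.96 ± 0.33 gave an adjusted p of 0.062. With the run as a block the adjusted p was 0.0265.

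Among the enzymes, *Asns* had the largest of the 10 differences, with 42.7, 29.5 and 37.8 normalised CPM in RFP+ cells against 279, 215 and 196 in RFP- cells. The lowest RFP- sum was far above the highest RFP+ sum, and the log2 difference was -2.62 ± 0.21 (adjusted p = 0.000298). *Psat1* was at 9.89, 4.29 and 5.53 against 27.4, 29.0 and 44.1, without overlap. Its difference was -2.13 ± 0.32 (adjusted p = 0.00211). *Chac1* was at 16.4, 3.76 and 2.30 against 57.3, 38.2 and 33.5, also without overlap, with run 1 highest in both groups. Its difference was -2.29 ± 0.52 (adjusted p = 0.0118), and it did not pass without run 2 (adjusted p = 0.0882).

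**Figure D2:**
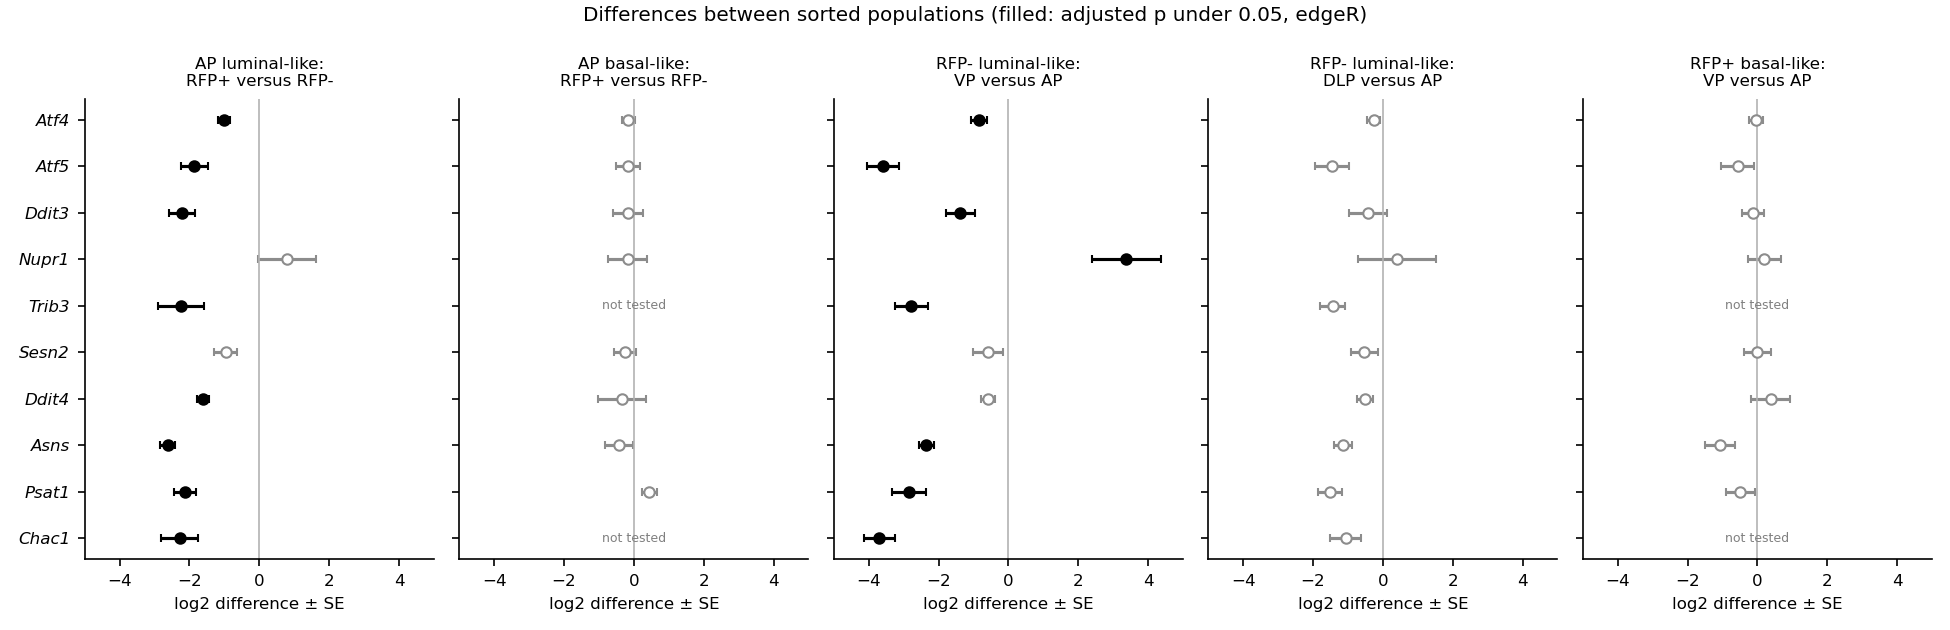
Log2 difference (x axis) of each gene between sorted populations in the 5 tested comparisons, as the edgeR estimate with its standard error (bars), filled where the adjusted p was under 0.05. In AP luminal-like cells 8 filled points lie to the left, lower in RFP+ cells, and in RFP- luminal-like cells of VP against AP 7 filled points lie to the left and that of *Nupr1* to the right.

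Other genes of the pathway were counted by lists in the same AP luminal-like contrast. All 11 aminoacyl-tRNA synthetases tested, the enzymes that charge tRNAs, were lower in RFP+ cells, among them *Gars* at 53.9 ± 2.80 (SD, n = 3) against 199 ± 34.0 normalised CPM (log2 difference -1.85). Of 7 amino acid synthesis genes tested 6 were lower, among them *Gpt2*, an alanine aminotransferase, at 28.5 ± 6.37 against 137 ± 20.8 (-2.22). Amino acid transporters were lower in 2 of 8 cases. The list of eIF2 kinases and phosphatase subunits held 1 gene lower of 7, *Eif2ak3*, which codes for the ER kinase PERK. Of 6 other known targets *Stc2* and *Gdf15* were lower and *Vldlr* was higher. The related factors split, with *Atf3*, *Cebpb* and *Nfe2l2* higher and *Cebpg* lower in RFP+ cells. Of 12 ER chaperones and other genes of the unfolded protein response 11 were lower, among them *Manf* (-2.01) and *Edem1* (-1.64). None of 6 hypoxia genes tested passed, and of 10 immediate early genes 3 were higher (*Junb*, *Dusp1* and *Zfp36*) and none lower.

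Markers of other cells moved with this comparison. The 6 blood cell markers summed to 162, 62.8 and 0.535 CPM in RFP+ sums, where 1, 1 and 5 of them were at 0, and to 6.24, 8.45 and 0 in RFP- sums, where 4, 3 and 6 were at 0. The 5 fibroblast markers summed to 46.3 to 137 CPM in RFP+ and to 4.64 to 67.4 in RFP- sums. They include *Dcn*, also a leading gene of basal-like clusters, and summed to 2688 to 3668 CPM in AP basal-like sums. The list is therefore not particular to fibroblasts here. Median UMIs per cell were 10045 to 13501.5 in RFP+ and 19697.5 to 22703.5 in RFP- sums. The part of these in the result was not tested.

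In AP basal-like cells none of the 8 genes tested passed between RFP+ and RFP-, and 0 of 8604 genes did (0%), by edgeR, with 96 genes at an unadjusted p under 0.05 and 1 gene called by DESeq2. With the run as a block 22 genes passed over all genes, none of them among the 8. *Asns* was at 22.1, 17.9 and 11.7 normalised CPM in RFP+ and at 18.6, 40.5 and 14.4 in RFP- cells, groups that overlapped, and *Atf4* at 222, 273 and 242 against 275, 308 and 236. *Psat1* was the exception in overlap, at 18.6, 17.4 and 16.6 against 12.1, 14.5 and 12.4, higher in each RFP+ sum, with a difference of +0.45 ± 0.22 (edgeR adjusted p = 1.00). *Trib3* and *Chac1* had too few UMIs in basal-like cells to be tested.

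The difference between the RFP effects of the compartments was tested directly, in a comparison added after the data were seen. Of the 10 genes 3 had a lower RFP effect in luminal-like than in basal-like cells, *Psat1* by -2.65 ± 0.42 on the log2 scale (edgeR adjusted p = 0.00401), *Asns* by -2.25 ± 0.47 (0.0139) and *Atf4* by -0.93 ± 0.24 (0.0384). Over all 9938 genes, 6.85% passed and 2.41% were lower. With the run as a block *Atf5* and *Ddit3* also passed, making 5, where 16.8% of all genes passed. Without run 1, 2 or 3 the number was 1, 0 and 0, where 3.51%, 0% and 0.693% of all genes passed, and without run 2 the log2 values were -2.70 for *Asns*, -2.68 for *Psat1* and -1.11 for *Atf4*. Both effects come from the same runs.

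Lobes were compared next in RFP- luminal-like cells, where VP and AP could be set against each other in all 3 runs. Of the 10 genes, 7 were lower and 1, *Nupr1*, was higher in VP than in AP at an adjusted p under 0.05, against 7.37% lower and 8.23% higher of all 7256 genes tested (15.6% in all). These cells share the AP RFP- sums with the RFP contrast above, so the directions are not independent. The median log2 difference of the 10 genes was -1.86, against -0.0039 over all genes.

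*Nupr1* was at 5291, 1232 and 2094 normalised CPM in VP and at 371, 525 and 12.2 in AP, without overlap, a log2 difference of +3.38 ± 0.99 (edgeR adjusted p = 0.0462). The value moved between +2.56 and +4.43 over the alternatives that lost the call, which were DESeq2 (adjusted p = 0.0609), each run left out (0.0532 to 0.124), a minimum of 20 cells (0.0943) and compartments set from keratins (0.0634). The 10 cells of VP RFP- in run 1 gave its highest value. *Atf4* was at 130.0, 231 and 153 in VP against 329, 311 and 348 in AP, without overlap (-0.84 ± 0.23, adjusted p = 0.0326), and lost its call without any 1 of the runs (adjusted p 0.0801 to 0.184). *Ddit3* was at 31.1, 56.0 and 22.5 against 67.3, 93.4 and 173 (-1.37 ± 0.40, adjusted p = 0.0469), and lost its call without run 2 (0.102) or run 3 (0.219). Both also lost it with at least 20 cells per sum and with compartments from keratins. These 3 calls lay near the threshold, and of the 8 calls in all 6 were left without run 1, 3 without run 2 and 5 without run 3. Over all genes 997 of 8444, 321 of 6416 and 591 of 8903 passed in those fits, against 1132 of 7256 with all runs.

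Of the remaining 5 calls, *Atf5* was at 8.48, 5.6 and 9.64 normalised CPM in VP against 142, 61.1 and 66.9 in AP (-3.59 ± 0.46, adjusted p = 0.000893), and *Asns* at 33.9, 44.3 and 46.6 against 279, 215 and 196 (-2.35 ± 0.22, adjusted p = 0.000194). *Chac1* was at 0, 4.48 and 1.61 against 57.3, 38.2 and 33.5 (-3.70 ± 0.45, adjusted p = 0.000768). In each of the 3 genes the highest VP sum was several-fold below the lowest AP sum, though the VP sums of *Chac1* held only 0, 8 and 1 UMIs. *Trib3* (-2.77 ± 0.48, adjusted p = 0.00406) rested on 1, 2 and 1 UMIs in VP and was under the count filter without run 2. *Psat1* (-2.85 ± 0.48, adjusted p = 0.00354) rested on 4, 5 and 2 UMIs there and did not pass without run 2 (0.107). *Ddit4* was at 28.3, 31.4 and 20.9 against 45.2, 45.6 and 38.0, without overlap, but did not pass (-0.58 ± 0.21, adjusted p = 0.0974), and *Sesn2* overlapped (-0.58 ± 0.43).

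Among the listed genes, 8 of 11 tRNA synthetases and 3 of 6 amino acid transporters were lower in VP, but only 2 of 12 ER chaperones were. *Gpt2* was at 10.2 ± 1.86 (SD, n = 3) in VP against 137 ± 20.8 normalised CPM in AP (-3.64), whereas *Pycr1*, an enzyme of proline synthesis, was higher in VP (58.3 ± 4.89 against 27.9 ± 6.21, +1.24). *Gdf15*, a secreted stress hormone, was lower in VP (-3.53), and the factor *Atf3* was higher. No hypoxia gene of 6 tested passed. VP luminal-like libraries are dominated by few secretory mRNAs, the 50 most abundant genes holding 65.3% to 68.6% of UMIs against 26.0% to 42.5% in AP, and 7 of the 8 calls held when library sizes were set without those 50 genes, while *Trib3* could not be fitted there.

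In RFP- luminal-like cells the DLP sums of *Asns*, *Atf5*, *Chac1* and *Trib3* lay between those of VP and AP without overlap. *Trib3* rested on 4 UMIs in VP and 14 in DLP, and this order was not counted over all genes. No difference of DLP from AP passed there (0 of 10 genes by edgeR, against 1.01% of 8033 genes, 0.622% lower in DLP, with 863 genes at an unadjusted p under 0.05). *Asns* was at 137, 78.7 and 92.7 normalised CPM in DLP against 279, 215 and 196 in AP, all lower, and its difference was -1.14 ± 0.25 (edgeR adjusted p = 0.0829). *Psat1* was at 7.61, 15.4 and 8.60 against 27.4, 29.0 and 44.1, also without overlap (-1.52 ± 0.34, adjusted p = 0.09). *Atf5* was at 60.9, 15.4 and 27.6 in DLP, under each AP sum, and *Chac1* at 27.4, 6.17 and 28.9. These and *Trib3* did not overlap with AP, at -1.46, -1.07 and -1.44, and *Nupr1* was the 1 gene above 0 (+0.40 ± 1.12). With the run as a block, lobes of a run being from the same mice, 5 genes passed, *Asns* (-1.16, adjusted p = 6.15e-05), *Atf5* (-1.42, 0.000167), *Psat1* (-1.56, 0.00646), *Chac1* (-1.14, 0.0301) and *Ddit3* (-0.62, 0.0434), among 600 genes in all. DESeq2 called 2 of the 10, *Asns* and *Psat1*, and 145 of all 8033 genes. Within the cluster family that held most cells of both populations, the *Tgm4*-led cells described next, none of 7 genes tested passed. There *Asns* was at -0.71 and *Atf4* at -0.13, and 139 of all 6012 genes tested passed.

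In RFP+ basal-like cells, of 8 genes tested none passed between VP and AP by edgeR, against 0.332% of 7836 genes, 0.0893% lower in VP, with 579 genes at an unadjusted p under 0.05. *Asns* was at 11.0, 5.70 and 9.51 normalised CPM in VP and at 22.1, 17.9 and 11.7 in AP, without overlap (-1.07 ± 0.43, adjusted p = 0.577). Among the lists only *Egln3*, an oxygen-sensing hydroxylase of the hypoxia list, passed (+2.32, adjusted p = 0.0212).

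The sorted populations mixed several luminal-like clusters, and these were grouped, after the clusters had been seen, into families by their leading genes. The sums above therefore compare mixtures. In AP RFP+ cells 186, 81 and 132 cells of the 3 runs fell in *Psca*-high clusters, a pattern of proximal luminal cells, and 25, 6 and 7 in *Tgm4*-led clusters. In AP RFP- cells 65, 119 and 25 were *Tgm4*-led, with secretory genes of the AP, and 6, 7 and 0 *Psca*-high. In VP RFP+ cells 45, 179 and 123 were *Scgb2b27*-led, with secretoglobins of the VP, and in VP RFP- cells 7, 50 and 9, beside 0, 16 and 35 *Msmb*-led ones. The 10 genes were left out of the clustering, but clusters of the same cells are compared as a description only.

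*Asns*, *Chac1* and *Atf5* were highest in *Tgm4*-led cells. *Asns* was at 249, 192 and 164 normalised CPM there in runs 1, 2 and 3, at 50.6, 45.7 and 58.1 in *Scgb2b27*-led cells, at 18.9 and 24.5 in *Msmb*-led cells of runs 2 and 3, and at 4.35, 11.9 and 8.92 in *Psca*-high cells. *Chac1* was at 62.4, 32.8 and 36.2 in *Tgm4*-led cells and did not exceed 4.90 in any other family. *Atf5* likewise was at 130.3, 56.5 and 44.8 there and at most 12.3 elsewhere. The ranges of these 3 genes in *Tgm4*-led cells did not meet those of the other families. *Ddit3* was less particular, at 50.03, 92.0 and 159.6 in *Tgm4*-led and at 97.0 and 67.0 in *Msmb*-led cells, against 11.1 to 26.0 in the other families. Within *Msmb*-led cells of run 3 it was uneven, at 100.4 CPM in 18 DLP RFP- cells. In 35 VP RFP- and 14 VP RFP+ cells of that run it was at 9.82 and 10.04 (6 and 5 UMIs). The 16 *Msmb*-led VP RFP- cells of run 2 held 105.2.

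*Nupr1* had the opposite arrangement. It was at 4257, 2499 and 3431 normalised CPM in *Scgb2b27*-led cells, at 652, 289.9 and 472 in *Psca*-high cells, at 154 and 314 in *Msmb*-led cells, and at 8.96, 27.4 and 6.75 in *Tgm4*-led cells, near the basal-like level. The AP RFP- sum of run 3, in which *Nupr1* was low, held no *Scgb2b27*-led cell, against 6 and 21 in runs 1 and 2. In run 2, those 21 of 148 cells held 1722 of the 1771 *Nupr1* UMIs of the AP RFP- sum. In DLP RFP- of that run, 15 of 66 cells were *Scgb2b27*-led and held 852 of 932. The part of this mixture in the *Nupr1* comparisons was not tested. In *Scgb2b27*-led cells of run 2 *Nupr1* stood at 1155 CPM in AP RFP+, 1996 in AP RFP-, 1266 in DLP RFP-, 1719.7 in VP RFP+ and 836 in VP RFP- cells. Within this family and run VP was thus above AP among RFP+ cells and below it among RFP- cells, on 14 and 21 AP cells. *Tgm4*-led cells of that run held 9.55 CPM in AP RFP- and 91.4 in DLP RFP-. In run 3 *Scgb2b27*-led cells held 2330 CPM in VP RFP+ and 1080 in DLP RFP+. *Msmb*-led cells of run 3 held 536 in VP RFP+, 384 in VP RFP- and 20.9 in DLP RFP-.

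Within the *Tgm4*-led family, AP RFP+ and RFP- cells could be set side by side in run 1 (25 and 65 cells). The 25 RFP+ cells held 80 *Chac1*, 194 *Asns* and 17 *Trib3* UMIs, against 3, 20 and 5 in the 186 *Psca*-high RFP+ cells of that run. *Atf4* was at 450.0 CPM (95% Poisson interval 400.1 to 504) in RFP+ and at 435 (401 to 471) in RFP- cells, and *Atf5* at 186 (155 to 222) against 193 (170.4 to 218). *Asns* was at 296 (256 to 341) against 382 (350.2 to 416), *Psat1* at 44.2 against 36.3 and *Trib3* at 25.9 against 17.4. *Ddit3* was lower in RFP+ cells, at 38.1 (24.7 to 56.3) against 89.2 (74.1 to 106), and *Chac1* higher, at 122 (96.8 to 152) against 77.6 (63.6 to 93.8). Within this family and run the intervals of *Ddit3*, *Asns* and *Chac1* did not overlap, while those of the other members did. How often such intervals miss each other over all genes was not counted. The intervals cover counting error only, and 1 run allows no test.

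**Figure D3:**
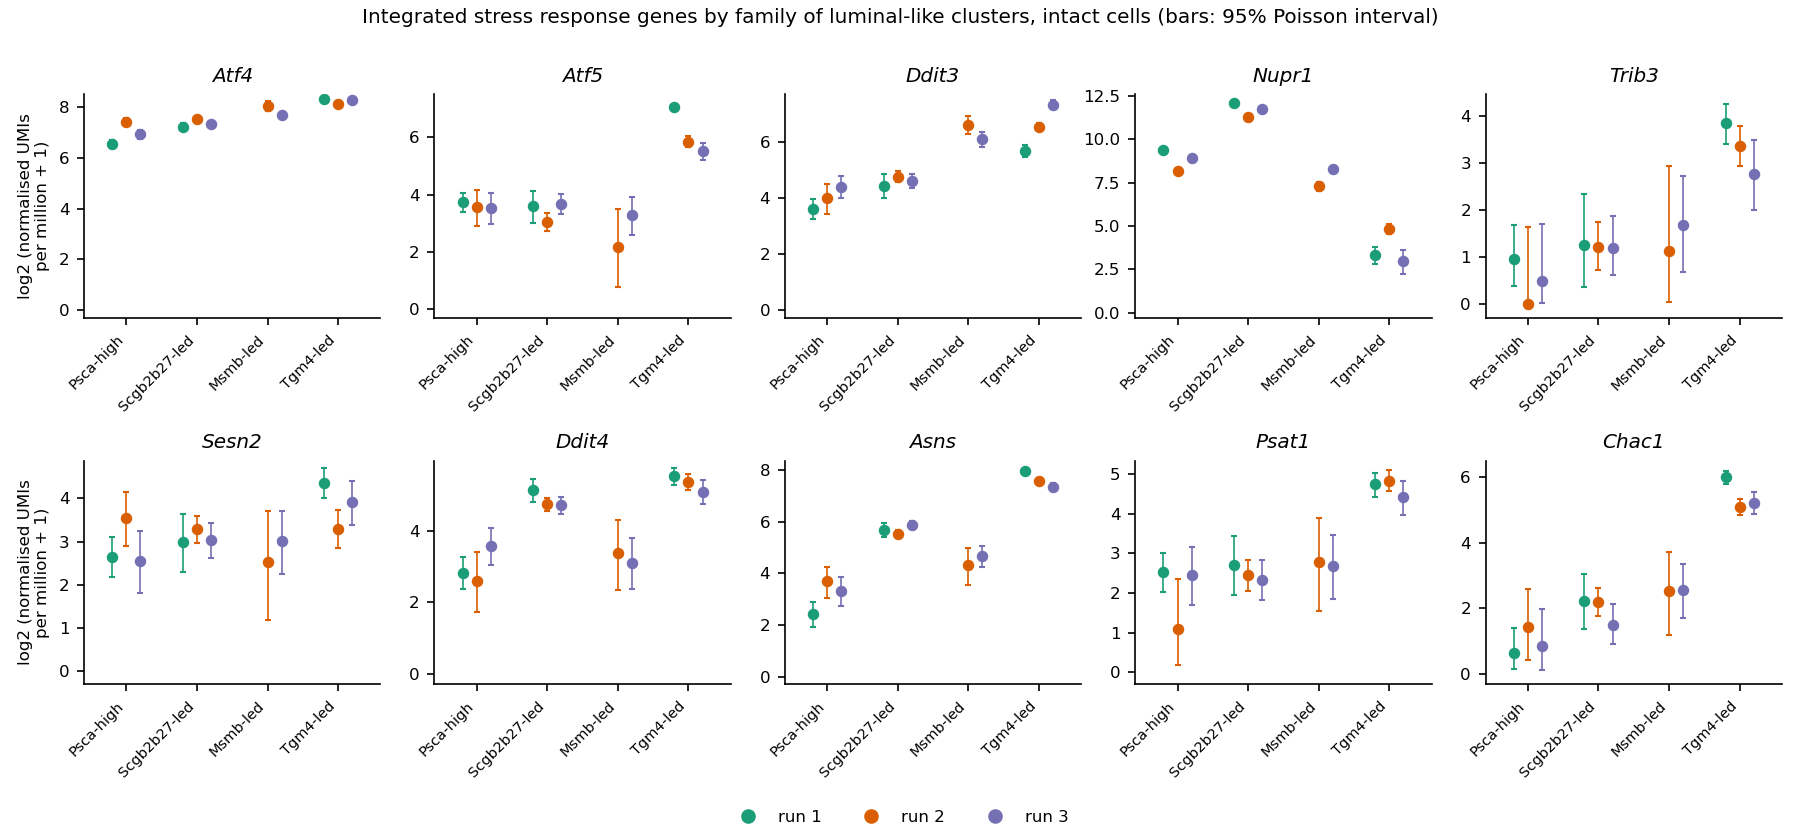
Level of each gene in 4 families of luminal-like clusters of intact mice on a log2 (normalised CPM + 1) scale; points are runs, bars 95% Poisson intervals. *Asns*, *Atf5*, *Trib3*, *Psat1* and *Chac1* are highest in *Tgm4*-led cells, and *Nupr1* is highest in *Scgb2b27*-led and lowest in *Tgm4*-led cells.

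Genes that varied like 3 of the 10 over the 31 intact sums were picked by Pearson correlation of log2 normalised CPM among the 4679 genes that averaged 20 CPM or more. The genes most like *Nupr1* were *Rnf186* (r = 0.989), *Atp2c2* (0.965) and *Asrgl1* (0.9504), those most like *Asns* were *Prdx6* (0.964), *Slc38a10* (0.958) and *Akr1b3* (0.951), and those most like *Atf4* were *Adgrl2* (0.820) and *Sec24a* (0.813). Over the 16 luminal-like sums *Atf4* went with *Ddit3* (r = 0.871), *Chac1* (0.826) and *Asns* (0.817), and *Atf5* with *Chac1* (0.872), while *Nupr1* ran against *Atf4* (-0.693) and *Chac1* (-0.720). Over all 31 sums, basal-like ones included, the values were weaker or turned, with *Atf4* at 0.38 against *Ddit3*, 0.31 against *Chac1* and 0.055 against *Asns*, and *Nupr1* at -0.57 against *Atf4*, +0.32 against *Chac1* and +0.56 against *Asns*. These sums share libraries and populations, so the values are descriptive.

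Castration was compared within run 2, where each group was 1 pool of cells and no test could be made. Genes were counted as past 2-fold among those with at least 20 UMIs in the higher group, and the intervals are exact and cover counting error only. In AP RFP+ luminal-like cells (193 castrated and 102 intact cells) 4 of 10 genes were past 2-fold higher after castration and none lower, against 11.3% higher and 6.14% lower of 8211 genes (17.5% in all, median log2 ratio of all genes +0.22). In AP RFP- luminal-like cells (52 and 148 cells) 7 of 9 were past 2-fold lower and none higher, against 17.7% lower and 4.47% higher of 7196 genes (22.2% in all, median -0.35).

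In AP RFP+ luminal-like cells *Atf4* was at 418 CPM in castrated and 187 in intact mice, a log2 ratio of +1.16 (0.99 to 1.34), which came to +0.96, under 2-fold, with library sizes set without the 50 most abundant genes. *Trib3* was at 11.3 CPM (39 UMIs) against 0.551 (1 UMI), a log2 ratio of +4.36 with an interval of 1.80 to 9.70. *Chac1* was at 18.6 against 3.85 (+2.27) and *Psat1* at 14.5 against 4.41 (+1.72). *Asns* differed less, at 40.1 against 30.3 (+0.40), as did *Nupr1*, at 889.8 against 708 (+0.33), while *Ddit3* and *Atf5* were within 0.05 of no change. Among the listed genes *Gdf15* was at 130.1 CPM against 4.96 (+4.71), the cystine carrier *Slc7a11* at 16.0 against 2.75 and the proline enzyme *Pycr1* at 4.65 against 14.9. None of 12 ER chaperones was past 2-fold.

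AP RFP- luminal-like cells went the other way for the enzymes. *Asns* was at 39.2 CPM after castration against 211 in intact mice (-2.43, interval -2.94 to -1.97), *Psat1* at 5.02 against 28.5 (-2.51) and *Chac1* at 8.04 against 37.6 (-2.23). The factors *Ddit3*, at 17.1 against 91.8 (-2.43), and *Atf5*, at 20.1 against 60.0 (-1.58), were lower too, as were *Ddit4* (-1.23) and *Trib3* (-1.42, interval -3.37 to 0.05). *Atf4* itself was at 317 against 306 and *Nupr1* at 606 against 516, so the mRNA of the factor differed little where those of its known target enzymes were lower. Of the lists, 10 of 12 ER chaperones and 6 of 11 tRNA synthetases were past 2-fold lower, with *Mthfd2*, a mitochondrial folate enzyme, at 8.04 against 94.1 CPM (-3.55), whereas *Gdf15* was higher (+2.47).

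The castrated and intact cells of these pairs fell in different clusters. Of the intact cells of run 2, 81 AP RFP+ cells were in the *Psca*-led cluster and 94 AP RFP- cells in the main *Tgm4*-led cluster, whereas 100 and 58 castrated AP RFP+ cells were in a *Clu*-led and a *Pnliprp1*-led cluster, which held 7 and 24 of the 52 castrated AP RFP- cells. In the *Clu*-led cluster *Nupr1* was at 1743 CPM, *Trib3* at 26.7 and *Chac1* at 38.2, and in the *Pnliprp1*-led one *Atf4* was at 498 and *Nupr1* at 332. A change in levels within a cell type and a change in the mixture cannot be told apart in these sums. After castration the AP RFP+ and RFP- cells were close in several genes, with *Asns* at 40.1 and 39.2 CPM and *Atf5* at 20.6 and 20.1.

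**Figure D4:**
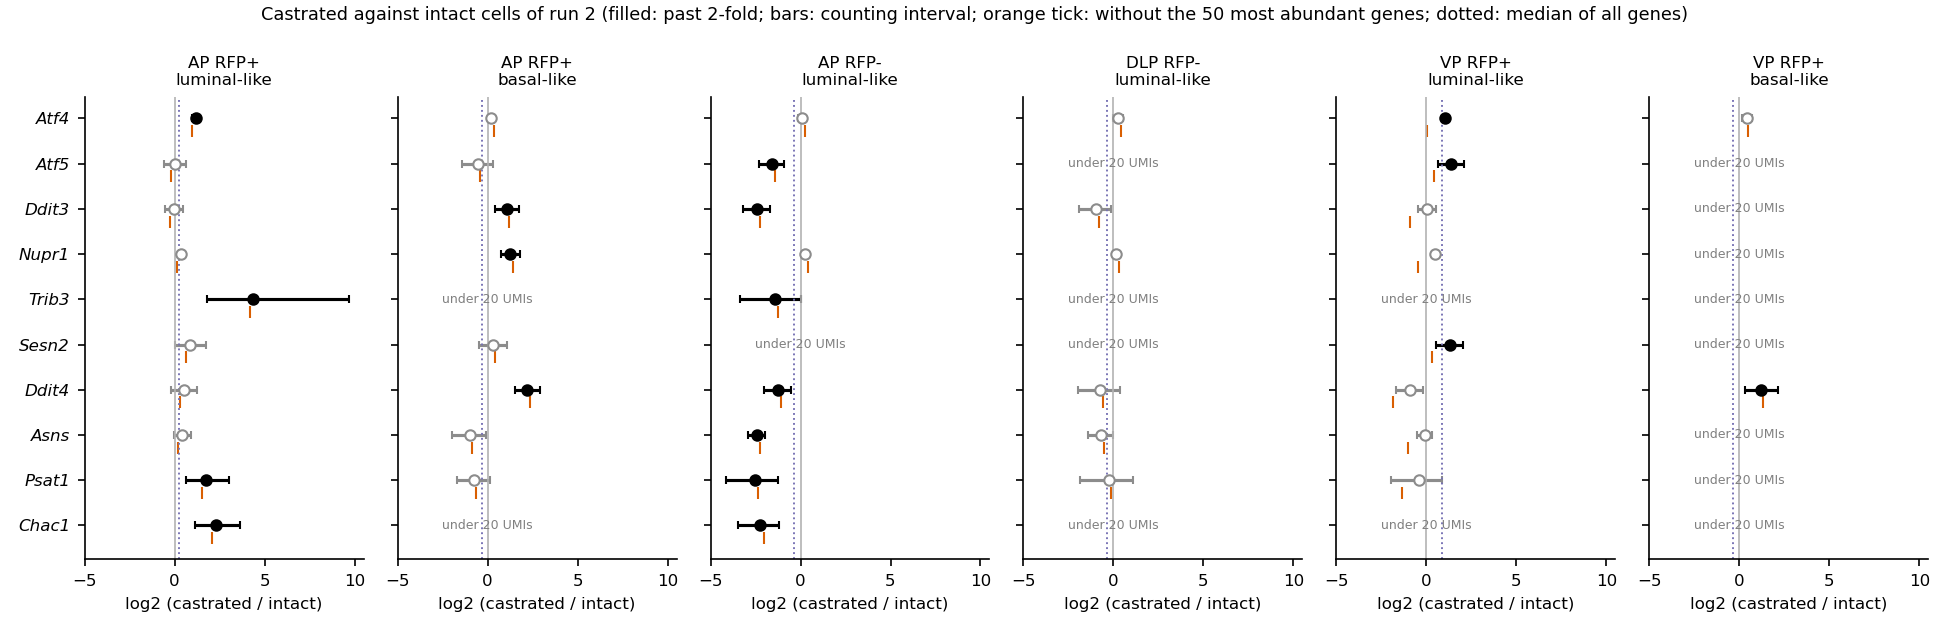
Log2 ratio (x axis) of castrated to intact CPM in run 2 for each gene and pair of populations, with the 95% counting interval (bars), filled where past 2-fold; the orange tick is the ratio with library sizes set without the 50 most abundant genes and the dotted line the median of all genes. Most genes lie to the right in AP RFP+ luminal-like cells and to the left in AP RFP- luminal-like cells.

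In AP RFP+ basal-like cells (160 and 119 cells) 3 of 8 genes were past 2-fold higher after castration, against 1.93% higher of 6624 genes (15.0% in all). *Ddit4* was at 72.6 CPM against 15.8 (+2.20, interval 1.54 to 2.93) and *Ddit3* at 46.1 against 21.9 (+1.07). *Nupr1* was at 73.3 against 30.8 (+1.25), but at -2.45 when each cell's compartment was set from its own keratins, so its direction depended on how the compartment was set. *Ddit4* also was the 1 gene past 2-fold, of 2 with enough UMIs, in VP RFP+ basal-like cells (79 and 78 cells), at 55.7 against 23.9 (+1.22, interval 0.29 to 2.16), where 19.7% of 4304 genes were past 2-fold and 2.88% higher. In the AP pair 8 of 12 ER chaperones were past 2-fold lower, and *Phgdh*, the first enzyme of serine synthesis, was at 49.9 against 221 CPM. The AP pair too lay in different clusters, with 150 of 160 castrated cells in a *Sfn*-led and 117 of 119 intact cells in a *Lgals7*-led basal-like cluster, and median UMIs per cell of 5514 and 9077.

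In VP RFP+ luminal-like cells (126 and 192 cells) *Atf4* (+1.01), *Atf5* (+1.37) and *Sesn2* (+1.29) were past 2-fold higher of 8 genes with enough UMIs, and none was lower, but so were 42.4% of all 7947 genes, with 4.11% lower (46.5% in all), and the median of all genes was +0.89. With library sizes set without the 50 most abundant genes that median was -0.06. *Atf4* was then at +0.06, *Ddit4* at -1.86, *Psat1* at -1.36 and *Asns* at -1.02. *Nupr1*, at 2351 CPM in castrated and 1679.7 in intact cells, turned from +0.49 to -0.46 under that setting. The share of all genes past 2-fold under that setting is not given here, so these values are not read as a count. In DLP RFP- luminal-like cells (25 and 66 cells) none of 6 genes was past 2-fold, against 18.3% of 4793 genes, 2.15% higher, and *Chac1*, at 15 and 8 UMIs, had too few to be counted.

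In the explants the genes were followed in prostatic epithelium-like cells (468, 446, 945 and 1945 cells on days 0, 1, 3 and 6), 1 pool per day, with no test. *Asns* was at 20.5, 38.0, 61.0 and 65.4 CPM on the 4 days, *Psat1* at 39.8, 71.3, 100.3 and 95.7 and *Atf5* at 31.6, 38.8, 48.8 and 70.3. *Atf4* was at 211, 196, 177 and 147. The mRNA of this factor was thus lower, and those of *Asns*, *Psat1* and *Atf5* higher, on day 6 than on day 0. The steps of *Atf5* and *Trib3* after day 1 depended on a cluster described below. *Trib3* was at 1.00, 4.76, 7.29 and 7.36 CPM, and its step from day 0 to day 1 (+2.25, interval 1.32 to 3.29) was the 1 of 10 past 2-fold between these days, against 6.79% of 11720 genes, 3.72% higher and 3.07% lower.

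From day 1 to day 3 no gene of the 10 was past 2-fold (7.02% of 11839 genes, 4.19% lower), and from day 3 to day 6 only *Chac1* was, at 2.07 and 0.818 CPM (-1.34, interval -2.15 to -0.55), against 4.74% of 12420 genes, 2.38% lower and 2.37% higher. In prostatic epithelium-like cells *Nupr1* was highest on day 1, at 24.6, 41.8, 30.7 and 17.3 CPM, and *Ddit4* too, at 67.2, 85.3, 79.4 and 51.4. These cells leave out cluster 7, described below, in which *Nupr1* was high. Over all assigned cells the successive log2 steps of *Nupr1* were +1.26, +0.58 and -1.30, so it was highest on day 3 there. In the prostatic epithelium-like cells *Ddit3* was at 27.9, 30.4, 21.7 and 18.6, and *Sesn2* stayed between 12.9 and 15.3. Of the 10 hypoxia genes 6 were past 2-fold higher on day 1 than on day 0, among them *Ndrg1* at 78.3 against 20.6 CPM, and the transporters *Slc7a11* and *Slc7a5* were as well (+1.82 and +1.64). None of 12 ER chaperones was past 2-fold in any step.

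Some explant clusters stood out. Cluster 13, left unnamed and led by *Ero1l* and *Ndrg1*, held 127 cells of day 1, in which *Atf4* was at 409.9 CPM, *Ddit3* at 165, *Asns* at 245, *Ddit4* at 216, *Trib3* at 82.2 and *Chac1* at 26.8, each above the prostatic epithelium-like cells of that day. Cluster 4, led by *Ndufa4l2* and *Ndrg1*, held 107 cells of day 3 and 369 of day 6. *Atf5* was at 173 and 229 CPM there, *Trib3* at 57.7 and 29.3 and *Asns* at 129 and 147. The hypoxia genes were high beside them, with *Slc2a1*, the main glucose carrier, at 804 CPM in cluster 13 on day 1 and at 495 and 359 in cluster 4, and their part in the levels of the 10 genes was not tested. *Nupr1* was high in cluster 7, unnamed and led by *Psca*, *Ly6d* and *Krt4*, at 602, 663 and 390.0 CPM in 43, 111 and 119 cells of days 1, 3 and 6. In cluster 13 it was at 71.5 CPM on day 1, but at 1359 (95% Poisson interval 1147 to 1599) in the 14 cells of day 3 and at 2840.3 (2345 to 3409) in the 10 cells of day 6, above cluster 7 on those days. Clusters 7 and 13, being unnamed, were not among the prostatic epithelium-like cells, whereas cluster 4 was. When cluster 4 was left out of those cells, the step from day 3 to day 6 was -0.12 for *Asns* in place of +0.10. For *Nupr1* it was -1.49 in place of -0.83 and for *Atf5* +0.12 in place of +0.53. From day 1 to day 3 *Atf5* was at +0.02 in place of +0.33 and *Trib3* at -0.46 in place of +0.62. *Psat1* differed little in that step, at +0.47 in place of +0.49.

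**Figure D5:**
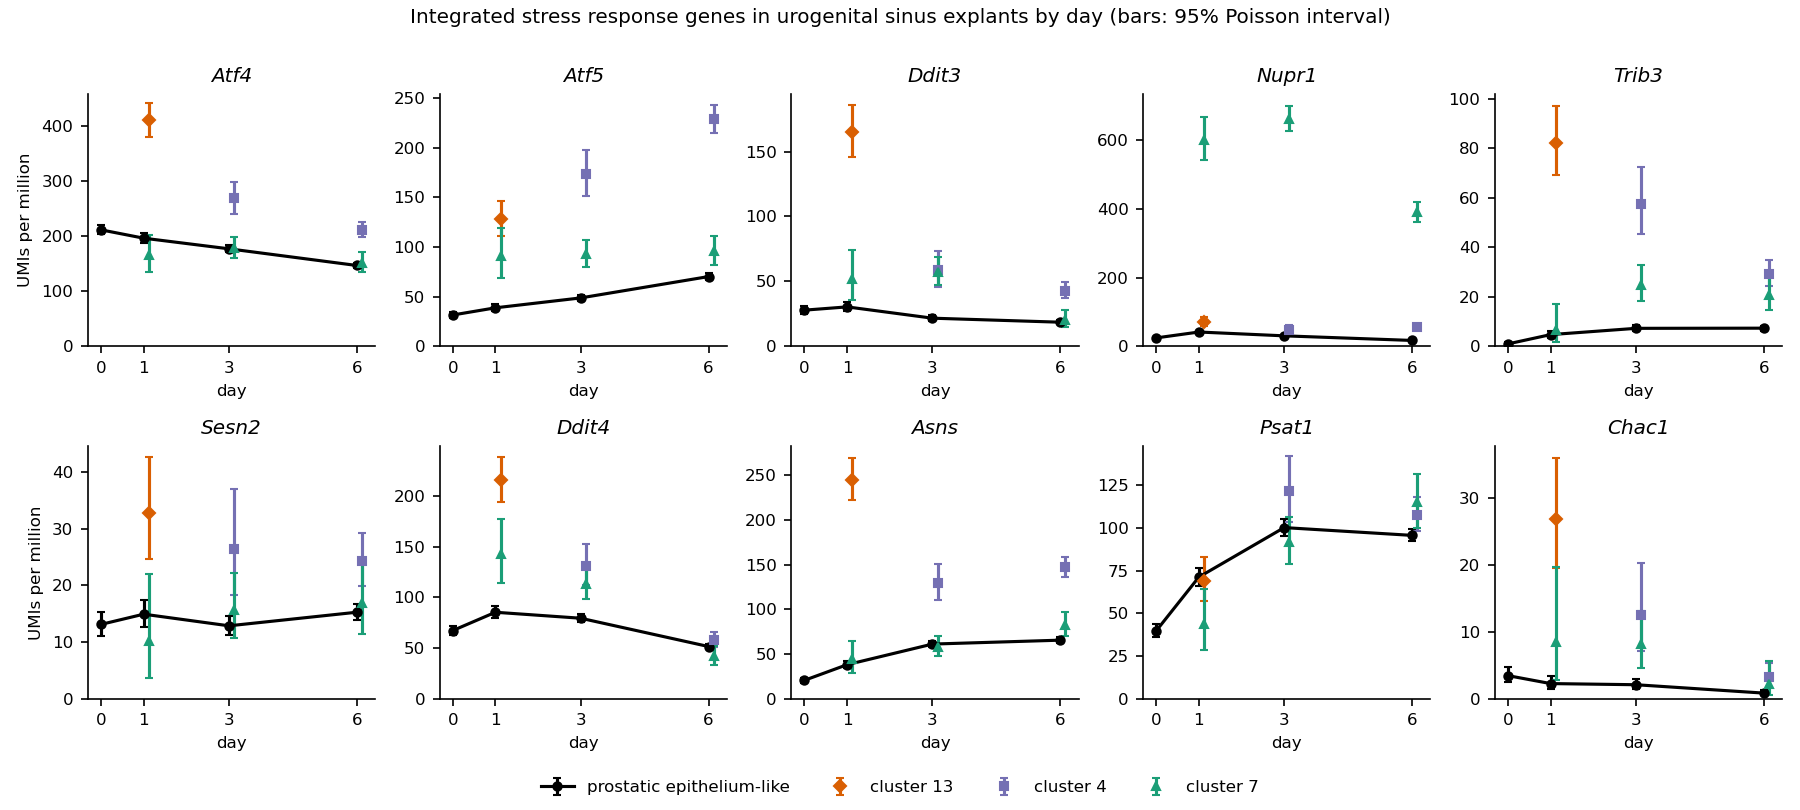
CPM of each gene in explants by day of culture (x axis), in prostatic epithelium-like cells (black line) and in clusters 13, 4 and 7 (coloured points, on the days given for each above); bars are 95% Poisson intervals. The few cells of cluster 13 on days 3 and 6 are not drawn. In prostatic epithelium-like cells *Asns* and *Atf5* are higher and *Atf4* is lower on each later day.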

How the data were processed

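The authors aligned 10x Genomics 3′ v3 reads to mm10 with Cell Ranger 3.1.0 and deposited raw UMI counts per gene and cell, with counts of the MULTI-seq sample barcodes per cell. Here cells were assigned to a sorted population from those barcodes, and cells positive for more than 1 barcode (326, 962 and 452 in runs 1, 2 and 3 and 823 in the explant) were left out as doublets. No expression-based doublet caller was run, so in runs 1 and 2 doublets with a cell of the unlabelled intact DLP RFP+ sample pass as single cells here. Adult cells with 750 to 7500 genes and at most 10% mitochondrial UMIs were kept, and explant cells with at least 1000 genes and at most 7.5%. Cells with over 0.5% of UMIs from markers of mesonephric derivatives (5, 8 and 9 in the adult runs) were left out. Each library was clustered (leidenalg 0.10.2, 2000 variable genes, 30 components) without the 10 genes, the listed pathway genes and mitochondrial genes.

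Counts were summed per run, population and compartment (at least 10 cells) and tested with edgeR 4.0.16 (R 4.3.3; TMM, filterByExpr, quasi-likelihood test, Benjamini-Hochberg, threshold 0.05). DESeq2 1.42.0, the run as a block, no filter, other library sizes, each run left out, at least 20 cells, 1 fit of all intact sums and compartments from keratins were the alternatives. Runs pair the populations by design, since lobes and fractions of a run came from the same pooled mice, and the deviations of same-run sums correlated at 0.0636 to 0.623. CPM were computed here from the deposited counts. Intervals are 95% Poisson intervals, or exact binomial ones for ratios. A count of 0 was set to 3 UMIs for a ratio.

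The members and lists were chosen with earlier results of these data known. Named genes are the 10 members and, of the listed genes, up to 5 per comparison with the smallest adjusted p (past the threshold) or, without a test, the largest log2 ratio; other listed genes named beside a count, and *Slc2a1*, were chosen after their values were seen. The scripts were tested on simulated counts. The summed level of 1 marker list is not reported here.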

Additional observations from a re-analysis of the deposited data

Results flagged for a closer look

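The RFP effect in AP differed between luminal-like and basal-like cells in 3 of the 10 genes, by an edgeR test of the difference itself that was added after the data were seen. The log2 effect in luminal-like cells minus that in basal-like cells was -2.65 for *Psat1* (adjusted p = 0.00401), -2.25 for *Asns* (0.0139) and -0.93 for *Atf4* (0.0384). In basal-like cells *Psat1* was higher in RFP+ sums in each run, at 17.5 ± 0.998 against 13.02 ± 1.33 normalised CPM (SD, n = 3), opposite to the luminal-like direction. *Psat1* passed again without run 1, *Asns* and *Atf4* did not, and none passed without run 2 or run 3.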

How the results depend on the processing

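In RFP- luminal-like cells, VP against AP, 8 of the 10 genes passed, 3 to 6 with a run left out, 5 with at least 20 cells per sum and 5 with compartments from keratins. Over all genes 1132 of 7256 passed, and 321 to 997 with a run left out. With at least 20 cells 1116 of 8132 passed, and with compartments from keratins 1201 of 7901. In DLP against AP 0 passed, 5 with the run as a block, 2 by DESeq2, 4 with no filter, 2 with all intact sums in 1 fit and 0 to 1 with a run left out. Over all genes 81 of 8033 passed, 600 with the block and 145 by DESeq2. With no filter 361 of 15896 passed, in 1 fit 160 of 11822, and with a run left out 2 to 73. The difference between the RFP effects of the compartments gave 3 genes, 5 with the block and 0 to 1 with a run left out. With the run as a block the AP luminal-like RFP contrast gave 9 genes in place of 8, where 3235 of 8985 genes passed in place of 2243. The AP basal-like contrast gave 0 of 8 with the block, where 22 of 8604 genes passed. After castration, averaging CPM over cells gave 1 gene in place of 3 in AP RFP+ basal-like and 0 in place of 1 in VP RFP+ basal-like cells. In AP RFP+ luminal-like cells *Asns* too was past 2-fold with that averaging (+1.01), and *Sesn2* with compartments from keratins (+1.41). *Nupr1* in AP RFP+ basal-like cells reversed to -2.45 with compartments from keratins. In the explants 2 steps were past 2-fold, 4 with CPM averaged over cells (2 for day 1 against day 0 and 1 for day 3 against day 1) and 5 over all assigned cells (3 for day 1 against day 0 and 2 for day 6 against day 3). Without cluster 4, the hypoxia-led cluster among the prostatic epithelium-like cells, a choice made after seeing the data, day 6 against day 3 gave 2. Shares of all genes past 2-fold under these castration and explant alternatives are not given here, and the causes were not tested. Of single genes called in a tested comparison, 155 of 174 alternative values kept the call and 19 lost it; 17 values of genes not called gained one. No alternative of a tested comparison turned a direction in a called gene. *Trib3* was under the count filter in some alternatives and has no value there. Sums of 10 cells, and genes with under 10 UMIs in a group, limit what could be seen in VP RFP- cells.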

Other observations

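Castrated DLP RFP+ luminal-like cells (150 cells of run 2) had no intact counterpart in that run and entered no comparison. *Trib3* was at 28.9 CPM there (95% Poisson interval 22.8 to 36.1), *Chac1* at 36.0 (29.2 to 44.0), *Nupr1* at 2302, *Atf4* at 332.5, *Sesn2* at 21.0 and *Psat1* at 19.5, while *Asns* was at 43.9. In plain CPM these *Trib3* and *Nupr1* levels stood together, whereas in intact *Tgm4*-led cells *Trib3* was high where *Nupr1* was low. Of these cells 98 fell in the *Clu*-led cluster and 30 in the *Pnliprp1*-led one.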
